A study of Mus musculus with 12 samples.

Results

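The 10 genes described here mark the macrophages of the mouse heart: Csf1r, Adgre1, Cd68 and Lyz2, which most macrophages express, Mrc1, Cd163, Folr2, Lyve1 and Timd4, which are typical of resident macrophages, and Ly6c2, which marks circulating inflammatory monocytes. They were found by gene symbol in the count tables of all 12 libraries, which list 21493 genes, and each member was found once. The libraries are poly-A RNA of cells isolated from hearts of 3-month-old mice of the 129SV background as adult cardiomyocytes, in 4 groups of 3 libraries: Des+/+ non-swim, Des+/+ swim, Des-/- non-swim and Des-/- swim. Des encodes desmin, the intermediate filament protein of muscle, and swimming was an exercise regime used as a mild cardiac stress. By the names the study's methods give the mice, both genotypes carry an αMHC-GFP transgene, in which a cardiomyocyte promoter drives a fluorescent reporter, and each library pools cells from several mice. Hearts were digested with trypsin and collagenase D and the cells were harvested at once, with no sort or culture step named, so that other heart cells could be in the isolate. The comparisons ask how the level of the macrophage markers in such isolates differs with desmin loss, with swimming, and with both.

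Heart macrophages survive on signals from the receptor encoded by Csf1r, whose ligands are Csf1 and Il34. A resident population seeded before birth renews itself with little input from blood and is known for the surface receptors encoded by Lyve1, Timd4, Folr2, Cd163 and Mrc1, while monocytes bearing Ly6c2 and Ccr2 enter the heart after injury and become macrophages there. The resident cells are known for clearing dead material and for support of the vessels and the conduction system. Lyve1 is also made by lymphatic endothelium and Lyz2 by neutrophils, so neither is specific to macrophages.

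Macrophage genes are known for promoters with binding sites of PU.1, the myeloid transcription factor encoded by Spi1. Promoters of 4 members are printed whose genes parted across the libraries described here: Lyz2 and Cd68 were far higher in Des-/- non-swim replicate 3 than in the other libraries of that group, and Cd163 and Timd4 were not. Adgre1 rose more than Lyz2 in that library and Lyve1 was lower there, but no promoter window was used for them. The 4 were chosen after their levels were seen. Each stretch is the 100 bases on the gene's strand before the RefSeq or the GENCODE transcription start, whichever lies further upstream. The stretches are from build GRCm38.p6, at chr10:117282322-117282421 on the minus strand (Lyz2), chr11:69666171-69666270 on the minus strand (Cd68), chr6:124304551-124304650 on the plus strand (Cd163) and chr11:46810699-46810798 on the plus strand (Timd4). Capitals mark the core letters GGAAGT of a PU.1-type site, read on either strand.
Lyz2: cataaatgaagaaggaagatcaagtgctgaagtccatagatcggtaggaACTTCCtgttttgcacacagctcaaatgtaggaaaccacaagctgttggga
Cd68: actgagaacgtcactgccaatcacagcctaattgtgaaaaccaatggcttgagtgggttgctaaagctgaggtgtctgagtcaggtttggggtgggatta
Cd163: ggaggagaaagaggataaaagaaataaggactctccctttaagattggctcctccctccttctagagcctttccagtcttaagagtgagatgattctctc
Timd4: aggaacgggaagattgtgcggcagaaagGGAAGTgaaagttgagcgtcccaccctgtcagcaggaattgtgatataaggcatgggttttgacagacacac

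In the 250 bases before the RefSeq start, these letters were found for Lyz2, Mrc1, Folr2, Timd4 and Ly6c2 and not for Cd68 and Cd163, among the 7 members with a window, and 19.7% of 32851 mouse promoter windows of that length held them. Such a match is a description of the letters and says nothing of binding. Of the 4 genes printed, Lyz2 was high in the library named above and Timd4 was not, and both carry the letters.

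Assigned reads ranged from 4320819 to 12072443 per library. Levels are given as CPM, read counts per 1000000 reads assigned to the genes tested, after TMM scaling of library sizes, in which 3 reads correspond to between 0.262 and 0.656 CPM. Desmin itself was at 973 to 3647 CPM in the 6 Des+/+ libraries and at 50.3 to 101 CPM in the 6 Des-/- libraries. All 8 cardiomyocyte markers were detected in every library, with summed levels of 26130 to 80437 CPM in Des+/+ and 4825 to 23619 CPM in Des-/- libraries. Replicate 3 of both Des-/- groups stood apart from its group: 3.19% of genes in Des-/- non-swim and 2.85% in Des-/- swim were at least 4-fold above the mean of replicates 1 and 2, against 0.243% and 0.19% in the Des+/+ groups. Of the 10 members, 5 in Des-/- non-swim and 6 in Des-/- swim were at least 4-fold higher in replicate 3, and 0 in either Des+/+ group. Results that rest on these libraries are therefore given with and without them. In bulk RNA, fewer cells of a type and less RNA per cell cannot be told apart.

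Compared per length, as mean CPM per kilobase of exons, Lyz2 was the most abundant member in all 4 groups, from 80.2 in Des+/+ non-swim to 611 in Des-/- non-swim. Lyve1 came next in Des+/+ non-swim (8.70 CPM per kilobase), Des+/+ swim (10.3) and Des-/- swim (13.4), but was seventh in Des-/- non-swim (9.70), where Cd68 (75.5), Csf1r (34.1), Adgre1 (26.8), Mrc1 (16.0) and Folr2 (13.1) were above it. Timd4 and Ly6c2 were the lowest members in every group, between 0.205 and 0.908 CPM per kilobase. Neighbours from Csf1r to Adgre1 in the Des+/+ non-swim order, at 6.22 to 3.14 CPM per kilobase, were not tested against each other, and their order changed in each other group.

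**Figure D1:**
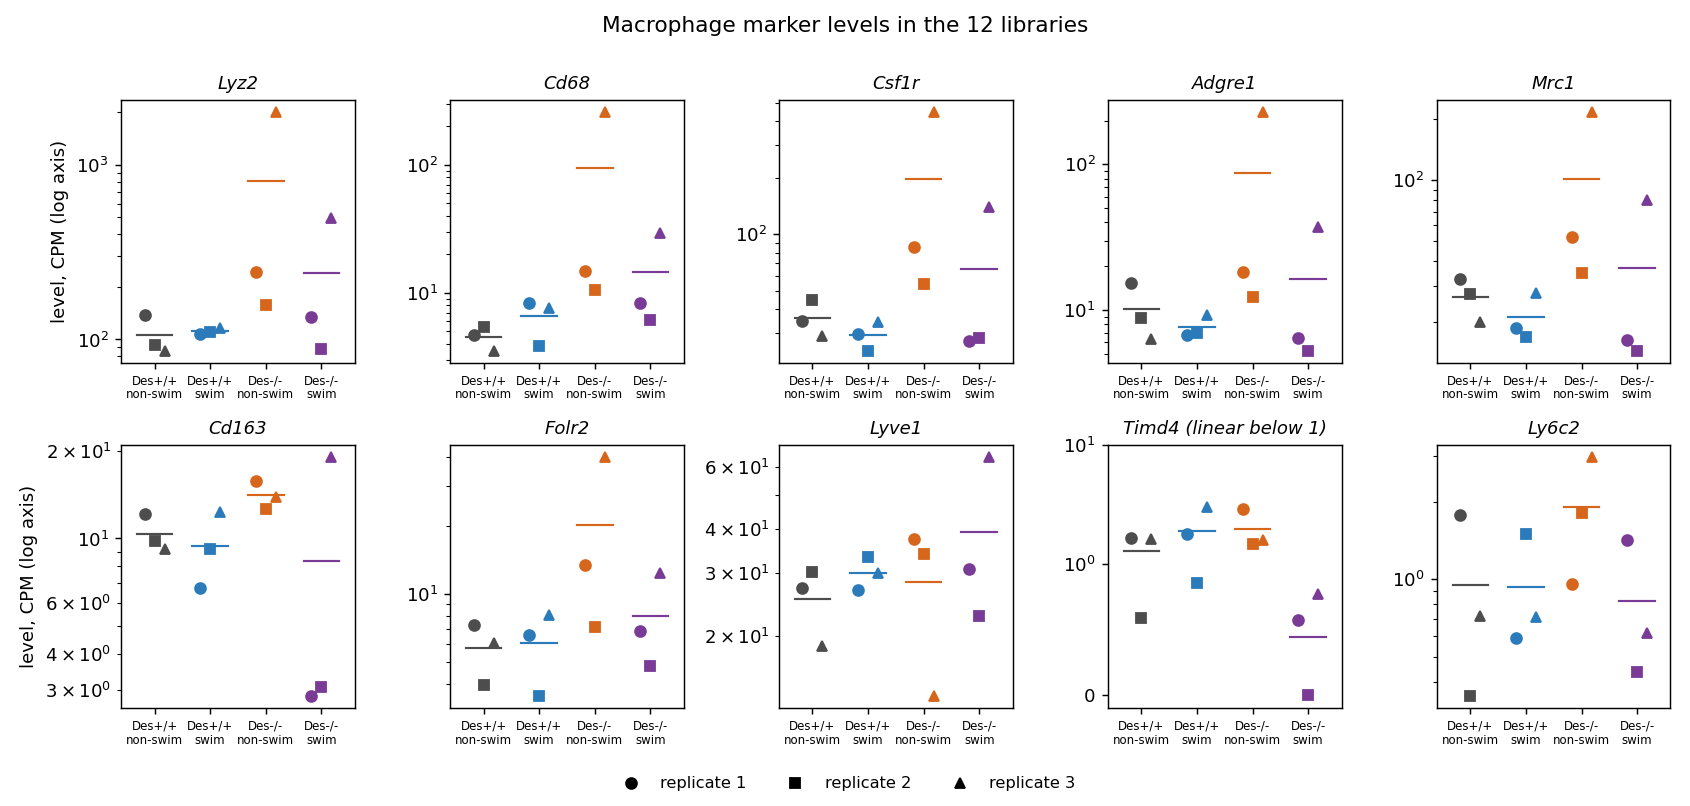
Level of each of the 10 members in CPM (log axis, linear below 1 for Timd4) in every library, with groups on the x axis, symbols for replicate number and lines for the group mean. Replicate 3 of Des-/- non-swim is far above the rest for Lyz2, Cd68, Csf1r, Adgre1 and Mrc1, at 218 to 2012 CPM, but is the lowest library for Lyve1 at 13.5 CPM.

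Among the genes most macrophages express, Csf1r (GRCm38 18:61100598-61132149), the receptor for colony-stimulating factor 1, was at 34.5, 44.5 and 28.7 CPM in the 3 Des+/+ non-swim libraries, 29.4, 24.0 and 34.0 in Des+/+ swim, 85.9, 54.4 and 450.3 in Des-/- non-swim, and 27.2, 28.0 and 139.9 in Des-/- swim. Every Des-/- non-swim library was above every Des+/+ non-swim library, whereas replicates 1 and 2 of Des-/- swim lay within the Des+/+ swim range. Adgre1 (17:57358691-57483527), which encodes the F4/80 antigen used to stain mouse macrophages, was at 15.3, 8.88 and 6.32 CPM in Des+/+ non-swim, 6.73, 6.96 and 9.25 in Des+/+ swim, 18.2, 12.2 and 230.0 in Des-/- non-swim, and 6.40, 5.25 and 37.1 in Des-/- swim. Its Des-/- non-swim replicate 2 lay below Des+/+ non-swim replicate 1, so the groups overlapped. Cd68 (11:69664213-69666153), a glycoprotein of the lysosome membrane, was at 4.71, 5.38 and 3.52 CPM in Des+/+ non-swim, 8.39, 3.85 and 7.54 in Des+/+ swim, 14.9, 10.4 and 259.5 in Des-/- non-swim, and 8.25, 6.12 and 29.4 in Des-/- swim. Here the non-swim groups did not overlap even without replicate 3, and the swim groups did. Lyz2 (10:117277331-117282321), the antibacterial lysozyme of myeloid cells, was at 138, 92.8 and 86.1 CPM in Des+/+ non-swim, 108, 110.4 and 116 in Des+/+ swim, 242, 157 and 2012 in Des-/- non-swim, and 135, 88.1 and 494 in Des-/- swim. The Des+/+ swim libraries were the tightest group for Lyz2, at 111.3 ± 4.01 CPM (SD, n = 3). Of the 100-base windows of Lyz2 transcripts, 1.97% also occur in Lyz1, its near copy, which was at 0.471 to 15.2 CPM.

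Of the resident-type receptors, Mrc1 (2:14229392-14332057), the mannose receptor CD206, was at 32.5, 27.6 and 20.03 CPM in Des+/+ non-swim, 18.8, 16.8 and 27.9 in Des+/+ swim, 52.8, 34.9 and 218 in Des-/- non-swim, and 16.4, 14.4 and 79.6 in Des-/- swim. Its pattern was like that of Csf1r, except that replicates 1 and 2 of Des-/- swim were below every Des+/+ library. Folr2 (7:101839988-101857194), a folate receptor, was at 7.31, 3.97 and 6.05 CPM in Des+/+ non-swim, 6.61, 3.53 and 8.11 in Des+/+ swim, 13.4, 7.13 and 40.1 in Des-/- non-swim, and 6.83, 4.81 and 12.3 in Des-/- swim. The non-swim groups overlapped by a narrow margin, at 7.13 against 7.31 CPM. Cd163 (6:124304656-124330527), the scavenger receptor for haemoglobin bound to haptoglobin, was at 12.1, 9.82 and 9.20 CPM in Des+/+ non-swim, 6.73, 9.20 and 12.4 in Des+/+ swim, 15.8, 12.7 and 13.9 in Des-/- non-swim, and 2.84, 3.06 and 19.1 in Des-/- swim. Unlike the genes above, it was not raised in replicate 3 of Des-/- non-swim, and Des-/- swim replicates 1 and 2 held its lowest levels of all 12 libraries.

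Lyve1 (7:110850607-110863239), a hyaluronan receptor, was at 27.2, 30.3 and 18.7 CPM in Des+/+ non-swim, 26.9, 33.4 and 30.0 in Des+/+ swim, 37.4, 34.1 and 13.5 in Des-/- non-swim, and 30.9, 22.7 and 63.9 in Des-/- swim. Replicate 3 was thus the lowest library of Des-/- non-swim and the highest of Des-/- swim. Timd4 (11:46810800-46844332), a receptor for phosphatidylserine on dying cells, was at 1.65, 0.584 and 1.62 CPM in Des+/+ non-swim, 1.77, 0.856 and 2.99 in Des+/+ swim, 2.87, 1.47 and 1.57 in Des-/- non-swim, and 0.569, 0 and 0.770 in Des-/- swim. The Des-/- swim values rest on 4, 0 and 5 reads, and the count of 0 in replicate 2 allows a level of up to 0.656 CPM. Ly6c2 (15:75108158-75111970), the Ly6C antigen of inflammatory monocytes, was at 1.77, 0.351 and 0.722 CPM in Des+/+ non-swim, 0.591, 1.498 and 0.712 in Des+/+ swim, 0.957, 1.81 and 2.97 in Des-/- non-swim, and 1.42, 0.437 and 0.616 in Des-/- swim, from 2 to 34 reads. These values lie near the limit of detection, and 5.81% of the 100-base windows of Ly6c2 transcripts also occur in Ly6c1, a gene of vascular endothelium at 350 to 1207 CPM, so Ly6c2 counts are uncertain.

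Without swimming, the macrophage markers were higher in Des-/- than in Des+/+ cells for all 10 members, and 5 of the 10 passed the test, edgeR's quasi-likelihood test with Benjamini-Hochberg adjustment over 13158 genes at an adjusted p under 0.05. All 10 members had passed the filter on low counts. Of all genes tested, 32% were called in either direction and 14% were called higher. The median log2 change of the members was 1.87, against 0.04 over all genes. Cd68 rose by 4.40 on the log2 scale (SE 1.14, adjusted p = 0.0139), Lyz2 by 2.93 (SE 0.90, adjusted p = 0.0277), Csf1r by 2.46 (SE 0.79, adjusted p = 0.0344), Folr2 by 1.81 (SE 0.59, adjusted p = 0.0354) and Adgre1 by 3.10 (SE 1.05, adjusted p = 0.0425). Of the 5 called members, 4 are genes of macrophages in general and 1, Folr2, is of the resident type. Mrc1 had a log2 change of 1.94 (SE 0.73, adjusted p = 0.0616) and just missed the threshold. The other resident-type receptors were not called, with log2 changes of 0.45 for Cd163 (SE 0.56, adjusted p = 0.578), 0.16 for Lyve1 (SE 0.41, adjusted p = 0.798) and 0.60 for Timd4 (SE 0.64, adjusted p = 0.507), and Ly6c2 was at 1.03 (SE 0.65, adjusted p = 0.25). Every Des-/- library was above every Des+/+ library for 5 members, Lyz2, Cd68, Cd163, Mrc1 and Csf1r, and the same held for 23% of all genes.

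The size of these changes rested on replicate 3. In Des-/- non-swim its level divided by the mean of replicates 1 and 2 was 20.5 for Cd68, 15.1 for Adgre1, 10.1 for Lyz2, 6.42 for Csf1r, 4.97 for Mrc1 and 3.90 for Folr2, but 2.15 for Ly6c2, 0.975 for Cd163, 0.725 for Timd4 and 0.377 for Lyve1. Without that library, 0 members and 21.1% of all genes were called by edgeR. The log2 changes were 1.49 for Cd68 (SE 0.57, adjusted p = 0.0831), 0.98 for Csf1r (SE 0.57, adjusted p = 0.241) and 0.93 for Lyz2 (SE 0.54, adjusted p = 0.243). That fit kept Des-/- swim replicate 3, the highest library of its group for these genes, and the spread was shared by all groups. With replicate 3 left out of both Des-/- groups, 4 members were called higher, beside 28% of all genes called in either direction. These were Cd68 at 1.55 (SE 0.34, adjusted p = 0.00715), Csf1r at 1.04 (SE 0.22, adjusted p = 0.00609), Lyz2 at 0.98 (SE 0.25, adjusted p = 0.0142) and Mrc1 at 0.79 (SE 0.26, adjusted p = 0.0426). All 10 members kept a positive log2 change in both fits. The call also depended on the controls, since leaving out Des+/+ non-swim replicate 2 or replicate 3 gave 0 calls and leaving out replicate 1 gave 1, Cd68. The calls over all genes fell as well, to 2612, 2931 and 3417 without replicate 2, 3 and 1, from 4210. When the model held the non-swim libraries alone, 1 member, Cd68, and 3420 genes were called. With DESeq2, 4 members were called (Lyz2, Mrc1, Folr2 and Csf1r), and Cd68 and Adgre1 got no adjusted p.

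**Figure D2:**
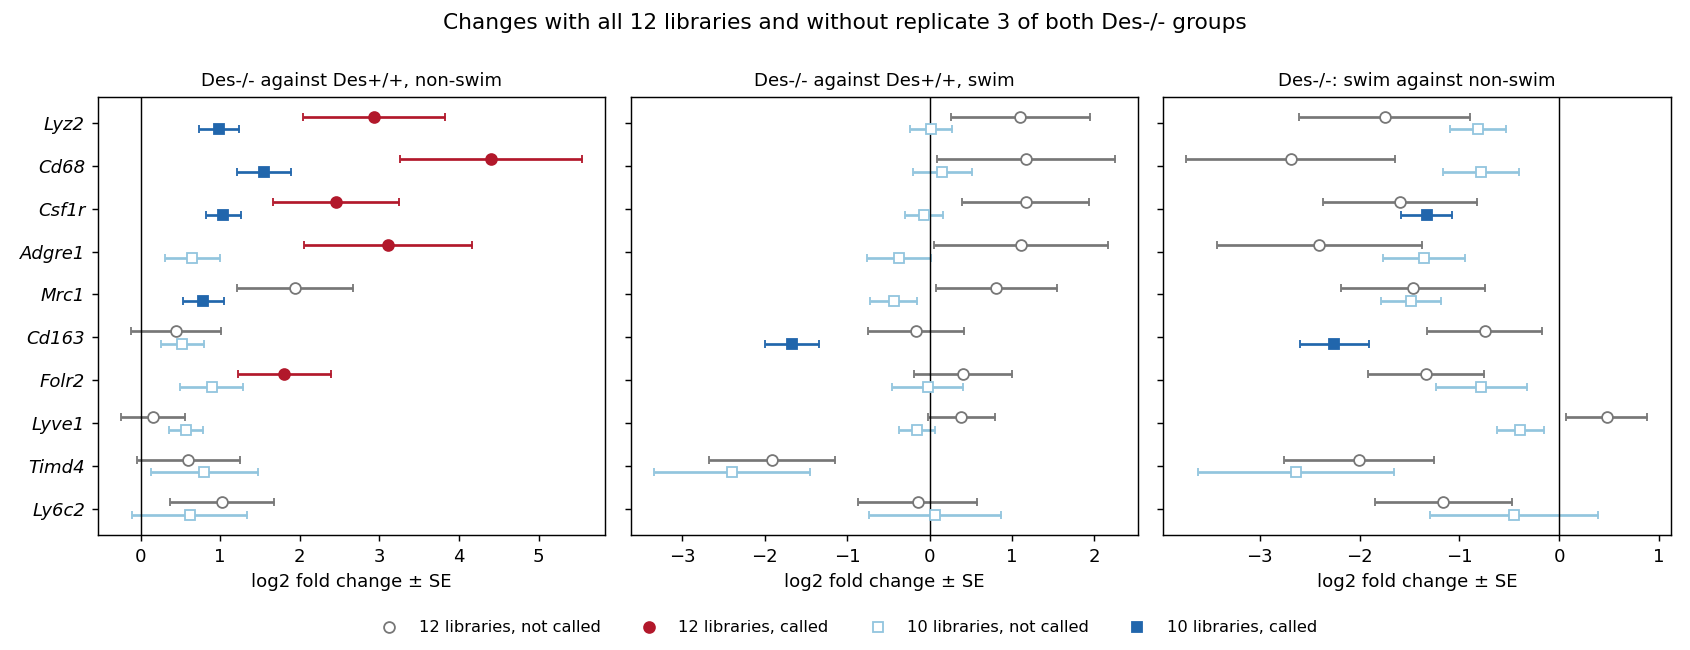
Log2 fold change with its SE for each member in 3 comparisons, with all 12 libraries (circles) and with replicate 3 of both Des-/- groups left out (squares), filled where the adjusted p is under 0.05. With fewer libraries the non-swim changes shrink, from 4.40 to 1.55 for Cd68, while Cd163 is called lower in both swim comparisons, at -1.66 and -2.25.

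Other cell types moved in the same library. In Des-/- non-swim replicate 3 the 8 cardiomyocyte markers summed to 4825 CPM, against 12047 and 21716 in replicates 1 and 2, and the 8 fibroblast markers to 20239 CPM, against 6293 and 5426. Col1a1, a chain of type I collagen, was at 8404 CPM there and at 1325 and 1252 in the other 2 libraries of the group. Over all 3 libraries, 8 of 8 cardiomyocyte markers were called lower and 8 of 8 fibroblast markers called higher in Des-/- without swimming, and 8 of 8 in each list were called with replicate 3 left out of both groups. Without Des-/- non-swim replicate 3 alone, 8 of 8 cardiomyocyte and 4 of 8 fibroblast markers were called. Among all genes tested, the shares called in these 3 fits were 32%, 28% and 21.1%. Ckm (-2.29, SE 0.39, adjusted p = 0.00176), Pln (-2.76, SE 0.48, adjusted p = 0.00191) and Tnni3 (-2.14, SE 0.40, adjusted p = 0.00261) led the first list, in which Myh6, the α myosin heavy chain, was at -2.47 (SE 0.68, adjusted p = 0.0171), and Dpt (1.45, SE 0.23, adjusted p = 0.0014), Tcf21 (1.27, SE 0.23, adjusted p = 0.00216) and Mfap5 (2.98, SE 0.64, adjusted p = 0.00567) the second. The vascular endothelial markers had log2 changes between -0.26 (Flt1) and 0.43 (Egfl7), with Tie1 at 0.32, and the smallest adjusted p was 0.259. The 7 neutrophil markers summed to 63.6 CPM in Des-/- non-swim replicate 3, against 6.80 and 5.55 in replicates 1 and 2 and 4.24 to 15.4 in Des+/+ non-swim, so they too were highest in the library in which Lyz2 was highest. Csf3r made up 37.3 CPM of that sum, and S100a8 and S100a9 were at 2.97 and 5.42 CPM there. Csf3r, a receptor gene also expressed by monocytes, was the called one of 4 tested, at 3.45 (SE 1.18, adjusted p = 0.0444), with groups that overlapped. Of 3 dendritic cell markers 2 were called higher, Cd209a (3.43, SE 1.07, adjusted p = 0.0299) and Ccr7 (2.17, SE 0.70, adjusted p = 0.0342), and Zbtb46 was at 0.19 (SE 0.25, adjusted p = 0.603). Of 6 erythrocyte genes 5 were called higher, led by Hbb-bs (3.43, SE 0.70, adjusted p = 0.00439), Hba-a1 (2.92) and Hba-a2 (3.19). The part of these shifts in the levels of the macrophage markers was not tested.

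After swimming, 0 of the 10 members differed between Des-/- and Des+/+ by edgeR, while 10.6% of all genes did. At an unadjusted p under 0.05 there was 1, Timd4, beside 4009 of 13158 genes, and DESeq2 called 0 members and 2332 genes. DESeq2 gave Cd68 and Adgre1 no adjusted p in this comparison. The log2 changes were positive for 7 members, led by Cd68 (1.17, SE 1.08, adjusted p = 0.487), Csf1r (1.16, SE 0.77, adjusted p = 0.33), Adgre1 (1.11, SE 1.06, adjusted p = 0.502) and Lyz2 (1.10, SE 0.85, adjusted p = 0.401), with a median of 0.61 over the members and 0.02 over all genes. Timd4 was lower in every Des-/- swim library than in any Des+/+ swim library, with a log2 change of -1.91 (SE 0.76, adjusted p = 0.118), and 18.6% of all genes were lower without overlap in this way. Without Des-/- swim replicate 3 the log2 changes of the general macrophage genes were near 0, at 0.00 for Lyz2, 0.15 for Cd68, -0.08 for Csf1r and -0.37 for Adgre1. Cd163 was the 1 member called, lower by 1.67 on the log2 scale (value -1.67, SE 0.31, adjusted p = 0.0263). Over all genes 664 were called in that fit, 359 of them lower. With replicate 3 left out of both Des-/- groups Cd163 was at -1.66 (SE 0.33, adjusted p = 0.0165), where 11.9% of all genes were called. With all 12 libraries Cd163 was at -0.16 (SE 0.58, adjusted p = 0.871), and the 19.1 CPM of replicate 3 was its highest level in any library.

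In Des+/+ cells no change of a member with swimming passed a test. Of the 10, 0 were called by edgeR, 0 reached an unadjusted p under 0.05 and 0 were called by DESeq2. Over all genes edgeR called 0.0912%, 2697 of 13158 had an unadjusted p under 0.05, and DESeq2 called 798. Cd68, Adgre1, Timd4 and Ly6c2 got no adjusted p from DESeq2 in this comparison. The log2 changes ran from -0.41 (Adgre1, SE 1.05) to 0.54 (Cd68, SE 1.121), and the ranges of the groups overlapped for every member. These SEs rest on a spread shared by all 12 libraries, among them the high Des-/- libraries numbered 3. With those left out, Cd68 was at 0.61 (SE 0.32, adjusted p = 0.247) and Adgre1 at -0.33 (SE 0.32, adjusted p = 0.539). In that fit edgeR called 0 members and 5.62% of all genes.

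In Des-/- cells 9 of 10 members were lower after swimming, with a median log2 change of -1.53 against -0.01 over all genes, but 0 were called by edgeR, 4 had an unadjusted p under 0.05 (Cd68, Folr2, Timd4 and Adgre1), and DESeq2 called 0. Over all genes edgeR called 0.0228%, 2201 of 13158 had an unadjusted p under 0.05, and DESeq2 called 339. Cd68 and Adgre1 got no adjusted p from DESeq2 here, so it could not call them. Timd4, at -2.005 (SE 0.75, adjusted p = 0.243), was the member lower without overlap, a pattern shared by 9% of all genes. The largest values were -2.69 for Cd68 (SE 1.04, adjusted p = 0.253) and -2.40 for Adgre1 (SE 1.03, adjusted p = 0.277), and without Des-/- non-swim replicate 3 these were 0.21 and 0.10. That fit kept Des-/- swim replicate 3, which was high as well. With replicate 3 left out of both groups, Cd68 was at -0.78 (SE 0.38, adjusted p = 0.35) and Adgre1 at -1.35 (SE 0.41, adjusted p = 0.165). The comparison shares its non-swim libraries with the genotype comparison without swimming, in which the same replicate 3 was high. With replicate 3 left out of both groups, Cd163 at -2.25 (SE 0.34, adjusted p = 0.0196) and Csf1r at -1.33 (SE 0.25, adjusted p = 0.0484) were called lower, where 0.545% of all genes were called, and Mrc1 was at -1.49 (SE 0.30, adjusted p = 0.0586).

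Whether the swimming response differs between genotypes was tested by the interaction term in edgeR, which called 0 members and 0% of all genes. At an unadjusted p under 0.05 it gave 1 member, Timd4 (-2.51, SE 1.00, adjusted p = 0.256), and 2148 genes, and DESeq2 called 0 members and 299 genes. For the interaction DESeq2 gave Cd68, Adgre1, Timd4 and Ly6c2 no adjusted p. The values for Cd68 (-3.23, SE 1.52, adjusted p = 0.312) and Lyz2 (-1.83, SE 1.19, adjusted p = 0.444) had SEs too large to place them.

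Relating each member to Csf1r in the same library sets aside how much macrophage RNA the library held in all, as far as Csf1r tracks it. In replicates 1 and 2 of Des-/- non-swim, Lyz2 stood at 282 and 290 reads per 100 Csf1r reads, Cd68 at 17.3 and 19.2, Adgre1 at 21.2 and 22.5, and Mrc1 at 61.5 and 64.2. In Des+/+ non-swim the ranges were 208 to 399 for Lyz2, 12.1 to 13.7 for Cd68, 19.9 to 44.4 for Adgre1 and 61.9 to 94.2 for Mrc1. Lyz2 and Adgre1 in replicates 1 and 2 thus lay within the Des+/+ non-swim range, Mrc1 within it or just below, and Cd68 above it, though within the 16.1 to 28.5 of Des+/+ swim. Replicate 3 had another make-up. Cd68 was at 57.6 and Adgre1 at 51.1 reads per 100 Csf1r reads, the highest of all 12 libraries, while Lyve1 was at 2.99, Cd163 at 3.09 and Timd4 at 0.350, against 43.6 and 62.7, 18.4 and 23.3, and 3.34 and 2.71 in replicates 1 and 2. A lower ratio was not confined to replicate 3. For Lyve1, replicates 1 and 2 were also below the Des+/+ non-swim range of 65.1 to 78.8. For Cd163, replicate 1 was below the range of 22.0 to 35.2 and replicate 2 within it. For Timd4 both were within 1.31 to 5.66.

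Des-/- swim replicate 3 shared that make-up in part. Its Cd68 (21.01) and Adgre1 (26.5) reads per 100 Csf1r reads were near those of replicates 1 and 2 (30.4 and 21.9, and 23.6 and 18.8). Its Lyve1 was at 45.7, against 114 and 81.3, and its Folr2 at 8.80, against 25.1 and 17.2, the lowest of the group as in Des-/- non-swim replicate 3, where Folr2 was at 8.90 against 15.6 and 13.1. Ly6c2 was also lowest there, at 0.440 against 5.24 and 1.56. Cd163 was at 10.5, 10.9 and 13.6 reads per 100 Csf1r reads in the 3 Des-/- swim libraries, below each of the Des+/+ swim (22.9, 38.4 and 36.4) and Des+/+ non-swim libraries (35.2, 22.0 and 32.1). For Cd163 the ratio of replicate 3 was thus near those of its group, although its level in CPM was not. Timd4 was at 2.09, 0 and 0.550 in Des-/- swim, at 3.57 to 8.79 in Des+/+ swim and at 4.78, 1.31 and 5.66 in Des+/+ non-swim, so that it overlapped the last group. With 3 libraries against 3, a two-sided exact permutation test of such a ratio cannot give a p below 0.1, and the ratios were picked after the levels were seen, so no test was run.

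**Figure D3:**
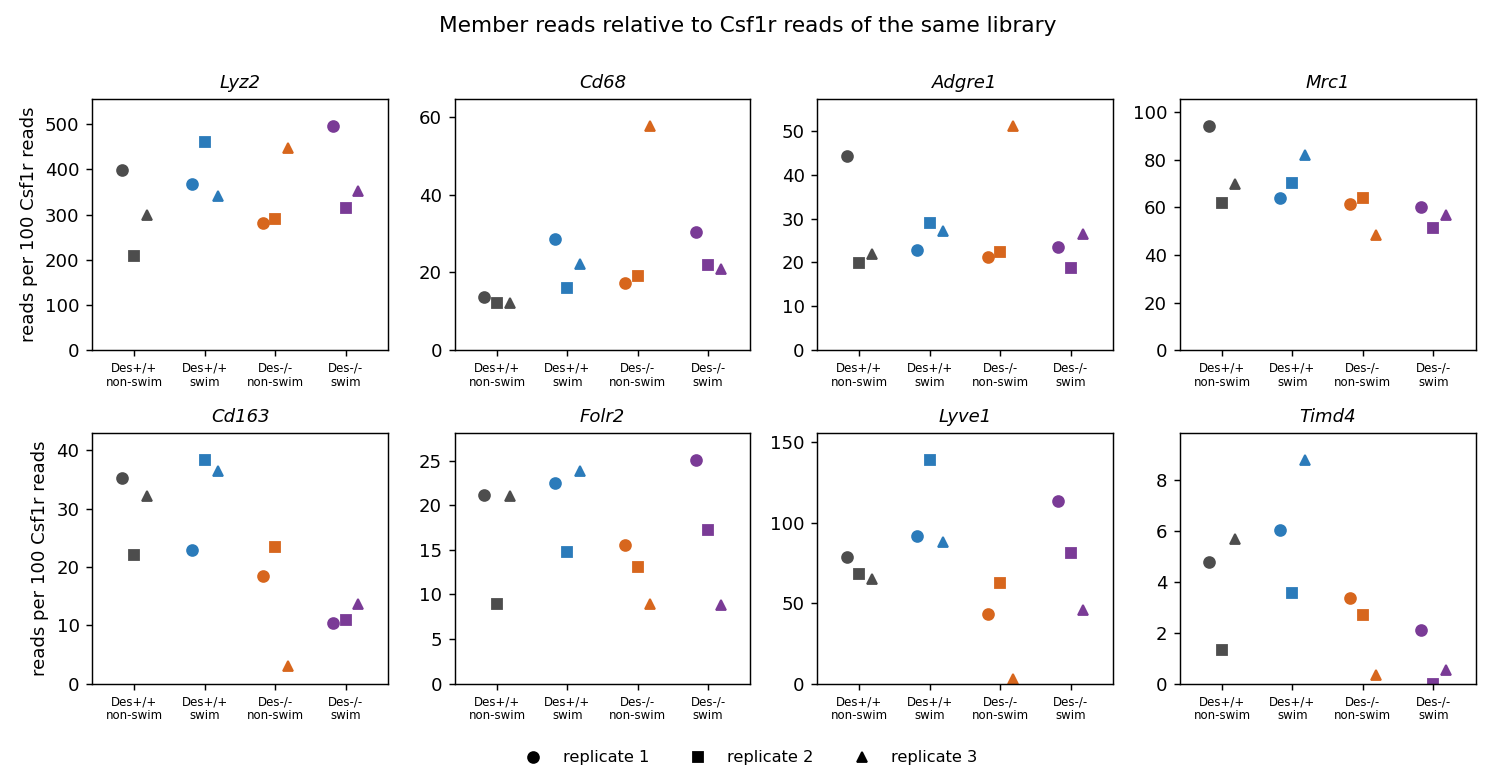
Reads of 8 members per 100 Csf1r reads of the same library, with groups on the x axis and symbols for replicate number. Des-/- non-swim replicate 3 is the highest library for Cd68 (57.6) and the lowest for Lyve1 (2.99) and Cd163 (3.09), and all 3 Des-/- swim libraries lie at 10.5 to 13.6 for Cd163.

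Other macrophage genes, in lists chosen by their known roles, moved with the members. Without swimming, 16 of 18 other general macrophage genes were called higher in Des-/-, with a median log2 change of 2.95. Of all genes tested, 14% were called higher in that comparison. Tyrobp and Fcer1g, signal adaptors of myeloid receptors, rose by 3.95 (SE 0.98, adjusted p = 0.0113) and 3.52 (SE 0.83, adjusted p = 0.00877), and Cx3cr1, the fractalkine receptor, by 3.21 (SE 0.68, adjusted p = 0.00513). Of 15 other resident-type genes 9 were called higher, with a median of 1.36, among them Cbr2 (1.74, SE 0.38, adjusted p = 0.00582), the chemokine gene Pf4 (1.54, SE 0.37, adjusted p = 0.00916) and the growth factor gene Igf1 (2.14, SE 0.49, adjusted p = 0.00782). Of 11 genes of monocytes and their progeny 8 were called higher, with a median of 3.11. Ccr2, the receptor that draws monocytes into tissue, was at 5.89, 6.90 and 2.80 CPM in Des+/+ non-swim and at 10.3, 9.29 and 113.5 in Des-/- non-swim, a rise of 3.11 (SE 0.90, adjusted p = 0.0222). Plac8 rose by 4.07 (SE 0.93, adjusted p = 0.00764), Thbs1, encoding thrombospondin 1, by 4.02 (SE 0.93, adjusted p = 0.0079), and Vcan, encoding versican, by 2.37 (SE 0.45, adjusted p = 0.00293). In this comparison 8 of 8 fibroblast markers were called higher as well, and which cells the Igf1, Thbs1 and Vcan reads came from was not tested. Without replicate 3 of Des-/- non-swim alone the calls were 3 of 18, 3 of 15 and 3 of 11, near the 21.1% of all genes called in that fit. With replicate 3 left out of both Des-/- groups they were 13 of 18, 7 of 15 and 5 of 10, where 28% of all genes were called.

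Of the genes that act upstream, Csf1, the ligand gene, was at 129, 131 and 95.6 CPM in Des+/+ non-swim and 166, 148 and 195 in Des-/- non-swim, a log2 change of 0.52 that was not called (SE 0.22, adjusted p = 0.0835), and Il34 was at 0.40 (SE 0.35, adjusted p = 0.404). Spi1, encoding PU.1, was at 3.30, 3.97 and 2.17 CPM in Des+/+ non-swim and at 10.3, 9.40 and 70.7 in Des-/- non-swim, and rose by 3.27 (SE 0.77, adjusted p = 0.00859). Runx1 and Cebpa, further transcription factors of myeloid cells, rose by 3.02 (SE 0.84, adjusted p = 0.0188) and 2.29 (SE 0.66, adjusted p = 0.0219). Of the 12 ligands and factors 7 were called higher, against 2 of 12 without Des-/- non-swim replicate 3 alone and 6 of 11 with replicate 3 left out of both Des-/- groups. Of all genes tested, 14% were called higher with all 12 libraries. Without Des-/- non-swim replicate 3 alone, 21.1% of all genes were called in either direction, 910 of 13296 higher. With replicate 3 left out of both groups, 28% were called in either direction, 1797 of 13216 higher. Genes of repair macrophages were called higher for 7 of 8, including Lgals3 (5.18, SE 1.35, adjusted p = 0.014), Trem2 (4.20, SE 1.126, adjusted p = 0.0159) and Cd9 (0.70, SE 0.14, adjusted p = 0.00427), against 1 of 8 without Des-/- non-swim replicate 3 alone and 4 of 8 with replicate 3 left out of both groups. Spp1, encoding osteopontin, was at 748 CPM in Des-/- non-swim replicate 3 and at 4.78 and 6.12 in replicates 1 and 2.

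After swimming, 1 of 18 general, 2 of 15 resident-type and 0 of 11 monocyte genes were called, and 0 of 12 ligands and factors and 0 of 8 repair genes. Of all genes tested, 10.6% were called in this comparison. The calls were Cx3cr1 (2.85, SE 0.73, adjusted p = 0.0334), Igf1 (1.85, SE 0.50, adjusted p = 0.0378) and Maf (1.46, SE 0.39, adjusted p = 0.0393), a transcription factor of resident macrophages. Each was higher in every Des-/- swim library than in any Des+/+ swim library. The share of all genes higher without overlap was not counted in this comparison. Cx3cr1 was at 1.65, 1.39 and 1.42 CPM in Des+/+ swim and at 7.54, 5.25 and 19.6 in Des-/- swim, above the Des+/+ range in replicates 1 and 2 as well, where Cd68, Csf1r and Adgre1 were not. Igf1 and Maf are also made by other heart cells. The next smallest adjusted p-values were those of Ms4a7 (3.84, adjusted p = 0.127) and Fcer1g (1.74, 0.171) among general genes, Pf4 (0.76, 0.184) among resident-type genes, Vcan (1.19, 0.0942), Napsa (2.15, 0.121) and Thbs1 (2.02, 0.139) among monocyte genes, Runx1 (1.79, 0.182), Nr4a1 (1.33, 0.189) and Il34 (0.62, 0.25) among ligands and factors, and Trem2 (2.78, 0.116), Fabp5 (0.65, 0.126) and Cd9 (0.32, 0.152) among repair genes. Of the other cell types, Pln (-1.84, 0.0302) was called lower and Dpt (0.99, 0.0251) and Mfap5 (2.40, 0.0361) higher. The smallest adjusted p-values in further lists were 0.142 for Flt1 (-0.60), 0.0963 for Flt4 (-0.45), 0.149 for Cd209a (3.03), 0.325 for Lcn2 (1.27) and 0.113 for Slc4a1 (-2.01). In Des-/- cells after swimming the log2 changes were negative for 18 of 18 general, 15 of 15 resident-type and 11 of 11 monocyte genes, with medians of -1.58, -0.98 and -1.70, and without Des-/- non-swim replicate 3 the medians were 0.30, -0.27 and -0.17. That fit kept Des-/- swim replicate 3. With replicate 3 left out of both Des-/- groups the medians were -0.89, -0.72 and -0.86.

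**Figure D4:**
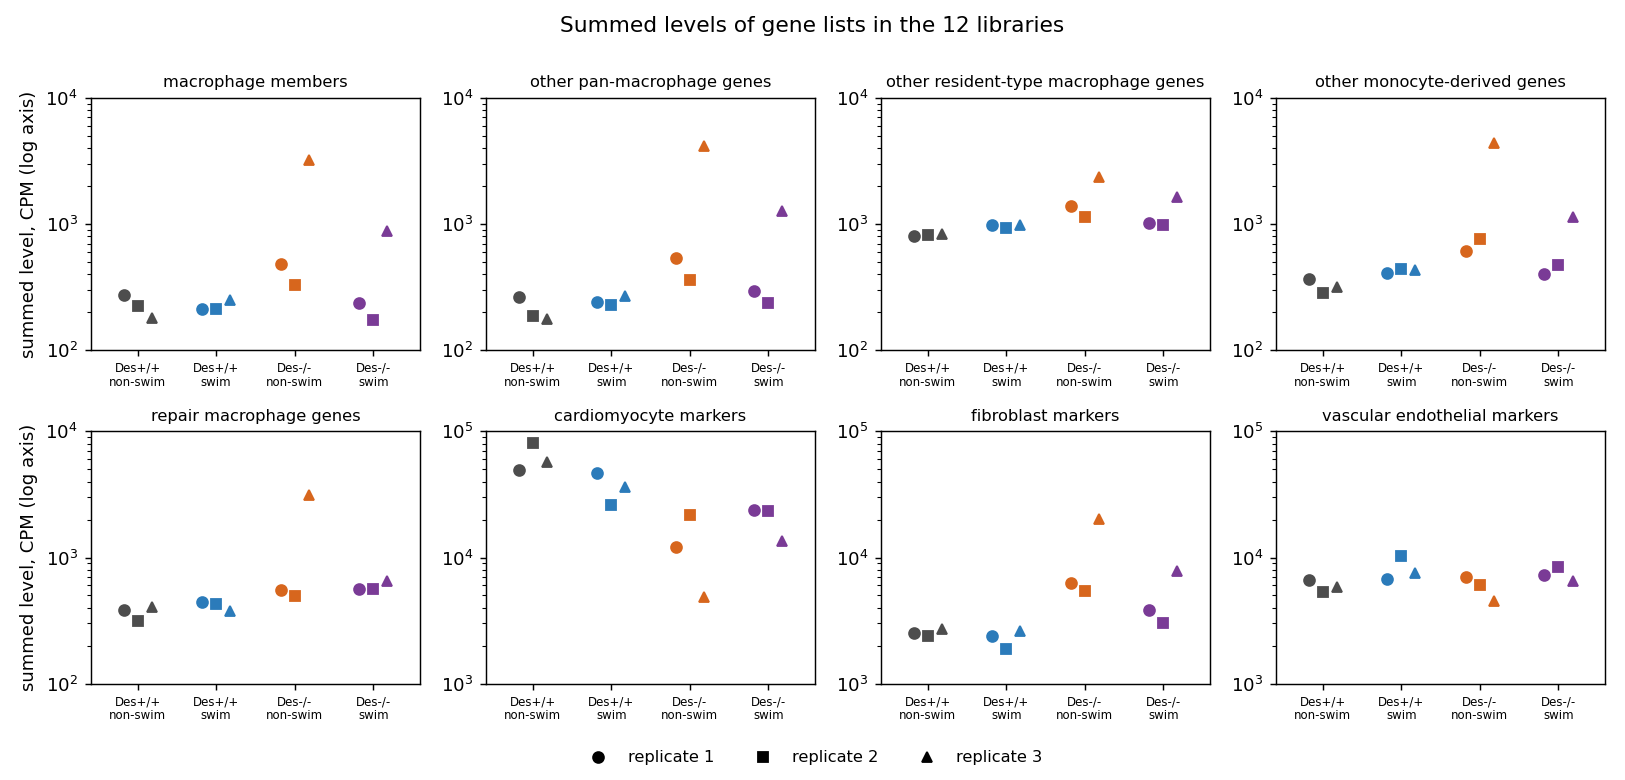
Summed level in CPM (log axis) of the members and of 7 other gene lists in every library, with groups on the x axis and symbols for replicate number. The members sum to 181 to 275 CPM in Des+/+ libraries and 3241 CPM in Des-/- non-swim replicate 3, where cardiomyocyte markers are lowest (4825 CPM) and fibroblast markers highest (20239 CPM). The resident-type sum, 819 CPM on average in Des+/+ non-swim, leans on Gas6 (416 CPM) and Stab1 (231 CPM).

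For Lyve1, genes of lymphatic endothelium were read beside it. Prox1, the lymphatic master regulator that heart muscle cells also express, was called lower in Des-/- without swimming (-1.73, SE 0.49, adjusted p = 0.0199), at 54.8, 77.6 and 50.6 CPM against 13.6, 35.3 and 6.56. Pdpn, encoding podoplanin of lymphatic vessels and fibroblasts, was called higher (2.02, SE 0.49, adjusted p = 0.0102), and Flt4, the lymphatic growth factor receptor, had a log2 change of -0.03 (SE 0.16, adjusted p = 0.891). Reln and Mmrn1, 2 more lymphatic genes, were lowest within their group in Des-/- non-swim replicate 3, at 8.05 and 13.8 CPM, the library in which Lyve1 was also lowest. The share of Lyve1 reads that came from either cell type was not tested.

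Likeness of pattern was measured as the root mean square difference of log2 CPM, each gene centred on its own mean, over the 12 libraries and 12150 other genes. Among the members, Mrc1 and Csf1r were closest (0.25), then Lyz2 with Csf1r and with Adgre1 (0.34 each), while Cd68 and Lyve1 were farthest apart (1.79). The genes nearest Lyz2 were Cd53 (0.24) and Alox5ap (0.25), both of leukocytes, nearest Cd68 Nckap1l (0.36) and Myo1f (0.37), and nearest Adgre1 Msr1 (0.30), a macrophage scavenger receptor, and Cybb (0.33), a subunit of the phagocyte oxidase. Nearest Mrc1 were Slc9a9 (0.19) and H2-DMa (0.28), and nearest Folr2 F13a1 (0.28) and Plxnc1 (0.28). The gene nearest Csf1r was Col1a2 (0.24), a collagen chain of fibroblasts, followed by Wdfy4 (0.27). Cd163 had Hoxd8 (0.33) and Scml4 (0.39), Lyve1 Tut1 (0.34) and Gbp9 (0.35), Timd4 Fut4 (0.50) and Bbc3 (0.65), and Ly6c2 Atad2 (0.33) and Rbl1 (0.35). The libraries are shared by all these pairs, and the high Des-/- libraries numbered 3 weigh on each value.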

How the data were processed

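RNA of 12 libraries (4 groups of 3) was sequenced as 100 bp single-end reads. According to the study and its processing notes, the authors aligned reads to GRCm38 with HISAT2 2.2.1, sorted them with SAMtools 1.13 and counted them per gene with HTSeq in reverse-strand mode; they deposited 1 table of raw counts per library. The labels and the methods name different library kits. Rows naming no gene were left out, and those of reads in no gene made up 34.0% to 64.5% of uniquely placed reads. Replicates were taken as separate samples, so p-values measure the spread between these libraries, each a pool of mice.

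The deposited counts were tested with edgeR 4.0.16 (R 4.3.3) by quasi-likelihood, with TMM scaling, filterByExpr and 1 model of 4 group means, and p-values were adjusted by Benjamini-Hochberg over all 13158 genes that passed. SE is the log2 change over the square root of F. Positions and exon lengths are from GENCODE release M21. The script was tested on simulated data. Alternatives were other scalings and filters, DESeq2 1.42.0, fits of the compared groups alone, a replicate block, each library left out, and both Des-/- libraries numbered 3 left out. The ratios to Csf1r and the list counts without these libraries were added after seeing the data.

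The members, lists and tests were chosen with earlier results of these data known. All members are named in every comparison, and from each other list up to 3 genes with the smallest adjusted p in each genotype comparison (fewer are given after swimming for other cell types), besides set anchor genes and the 2 nearest genes per member. The list of lymphocyte markers is not reported here. The sample titles give replicate numbers and state no pairing. In the Des-/- groups, same-numbered libraries deviated together from their group means (correlations of 0.365, 0.316 and 0.602 over genes, which share libraries). Replicate 3 stood apart in both groups, and deviations from a mean of 3 libraries depend on each other, so these values cannot establish a pairing. The replicate block fitted effects of replicate number shared by all 4 groups, so it does not test a pairing within Des-/-. A paired fit of the Des-/- libraries alone was not run, so the result for swimming in Des-/- is that of an unpaired test. With the block, 0 members were called for swimming in Des-/-, as without it.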

Additional observations from a re-analysis of the deposited data

How the results depend on the processing

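The count of members called without swimming, 5, was 4 to 6 under other scalings, other filters, DESeq2, the thresholds of the study and without both Des-/- libraries numbered 3, but 1 with only the libraries compared and 2 with the replicate block (Cd68 and Folr2), and 0 to 6 with a library left out. After swimming it was 0 to 1 with a library left out and 1 without both libraries numbered 3. For swimming in Des-/- it was 0 to 1 with a library left out, 2 without both libraries numbered 3 and 3 when calls followed the thresholds of the study on fold, mean count and raw p. For swimming in Des+/+ and the interaction it was 0 in every fit run.

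Counts over all genes moved more. Leaving out a library gave 2612 to 4590 calls without swimming, 74 to 2142 after swimming, 0 to 155 for swimming in Des+/+ and 0 to 51 for swimming in Des-/-. Swimming in Des+/+ gave 54 calls with RLE size factors, 26 with library totals, 58 with no filter, 798 with DESeq2, 282 with only the libraries compared, 19 with the replicate block, 743 without both libraries numbered 3 and 1358 under the thresholds of the study, against 12. Swimming in Des-/- gave 7 with no filter, 339 with DESeq2, 0 with only the libraries compared, 72 without both libraries numbered 3 and 1132 under the thresholds of the study, against 3. DESeq2 and the thresholds of the study gave 2332 and 2313 calls after swimming, against 1392, and 299 and 1722 for the interaction, against 0. Of 4210 calls without swimming 1840 were higher, and with upper-quartile scaling 2492 of 4526 and with library totals 3716 of 5313 were, where the median gene shifted by 0.10 and 0.26 on the log2 scale. After swimming 659 of 1392 were higher, against 948 of 1404 and 1198 of 1554 with these scalings. The thresholds of the study are those named above, and the cause of these differences was not tested.

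Some members without a call changed direction when a library was left out. Their log2 changes ran from -0.10 to 0.50 for Lyve1 without swimming. After swimming they ran from -1.67 to 0.26 for Cd163, -0.45 to 1.18 for Mrc1, -0.16 to 0.65 for Lyve1, -0.045 to 0.66 for Folr2, -0.079 to 1.53 for Csf1r, -0.37 to 1.505 for Adgre1 and -0.80 to 0.39 for Ly6c2. For swimming in Des+/+ they ran from -0.052 to 0.31 for Lyz2, -0.38 to 0.053 for Cd163, -0.19 to 0.35 for Folr2, -0.67 to 0.0088 for Adgre1 and -0.53 to 0.77 for Ly6c2. For swimming in Des-/- they ran from -2.85 to 0.26 for Lyz2, -3.71 to 0.21 for Cd68, -0.070 to 0.74 for Lyve1 and -3.89 to 0.10 for Adgre1. For the interaction they ran from -2.93 to 0.17 for Lyz2, -2.39 to 0.077 for Mrc1, -0.32 to 0.50 for Lyve1, -2.53 to 0.18 for Csf1r and -3.48 to 0.50 for Adgre1. Without both libraries numbered 3 the direction turned after swimming for Mrc1 (-0.44), Lyve1 (-0.15), Folr2 (-0.024), Csf1r (-0.067), Adgre1 (-0.37) and Ly6c2 (0.064), for swimming in Des-/- for Lyve1 (-0.39), and for the interaction for Lyve1 (-0.72).

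Same-numbered libraries deviated together most in the Des-/- groups, where a pairing was not established. In the other comparisons the correlations of same-numbered libraries ran from -0.41 to 0.134 and the block changed counts as given above. With 3 libraries a group and 2 that stand apart, moderate changes could not be resolved, and Timd4 and Ly6c2 rest on few reads.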
